A study of Mus musculus with 25 samples.

Results

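The 10 genes Dntt, Flt3, Il7r, Rag1, Rag2, Notch1, Ikzf1, Ccr9, Satb1 and Ighm of early lymphoid development were followed in RNA-seq of mouse HSLAM cells after deletion of Znf143. They were chosen by name as lymphoid priming genes with the difference between genotypes already known, so their differences between genotypes are a description, and the intervals and calls given for them are not read as tests. Of the 10 genes, 8 have a row among the 23116 genes of the deposited table and 2, Rag1 and Rag2, were not analysed here. HSLAM cells are the LSK+ CD150+ CD48- fraction of bone marrow, which is enriched for hematopoietic stem cells. Libraries came from 3 Znf143 f/f mice (the controls), which lack Cre, and 3 Znf143 -/- mice, which carry the same floxed alleles together with Rosa26ERT2-Cre, a Cre recombinase expressed in every tissue and switched on by tamoxifen. Cre removes exon 1 of the gene, which lies between loxP sites. All were adult males of 8 to 12 weeks, labelled C57BL/6 and described as 3 littermate pairs, and mice of both genotypes were injected with tamoxifen at its middle dosage over 10 days. The labels of the deleted samples name them as a CTCF knockout, whereas the title of the series and the paper name Znf143.

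Lymphoid priming is the low-level expression of lymphoid genes in multipotent progenitors before any commitment to the B or T lineage. In the textbook order, FLT3 appears as stem cells become multipotent progenitors, the template-independent polymerase TdT (encoded by Dntt) and the RAG recombinase follow in lymphoid-primed progenitors, and the interleukin-7 receptor marks common lymphoid progenitors. Long-term stem cells are usually described as FLT3-negative, and the transcription factors of the Ikaros family are already present in them.

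Dntt lies on the plus strand of chromosome 19 (GRCm38, 41029275 to 41059525) and Flt3 on the minus strand of chromosome 5 (147330741 to 147400489). The 250 bases before the annotated start of both genes are shown, from the promoter table of RefSeq (GRCm38.p6), because these were the 2 genes whose libraries did not overlap between genotypes. Capitals would mark a match to any of the motifs searched, and neither stretch holds one.

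Dntt, chr19:41029025-41029274, plus strand: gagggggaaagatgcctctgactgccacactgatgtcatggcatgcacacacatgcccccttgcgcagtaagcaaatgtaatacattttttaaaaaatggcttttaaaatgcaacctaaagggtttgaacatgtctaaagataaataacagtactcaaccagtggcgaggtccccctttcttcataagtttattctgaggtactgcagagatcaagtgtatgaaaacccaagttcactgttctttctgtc

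Flt3, chr5:147400490-147400739, minus strand: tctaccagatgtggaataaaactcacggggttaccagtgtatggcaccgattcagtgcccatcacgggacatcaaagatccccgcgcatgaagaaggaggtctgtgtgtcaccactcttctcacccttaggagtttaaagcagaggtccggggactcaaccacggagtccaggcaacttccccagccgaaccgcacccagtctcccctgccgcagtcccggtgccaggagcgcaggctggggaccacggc

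The motifs were searched on both strands of the 300 bases from 250 before to 50 after each start. From the known ZNF143 motif, the letters ACTACAA occur in 3.24% of 32851 such windows and CCCAGNATG in 2.04%. The CTCF letters AGGGGGCG occur in 6.07%, the ETS letters AGGAAGT in 9.35%, the RUNX letters TGTGGT in 16.8%, and TGGGAA, which is shared by Ikaros and RBPJ sites, in 25.6%. Of the 10 genes, 9 have at least 1 window and together they have 14. None of the 14 holds either set of ZNF143 letters, and the CTCF letters were found in 2 of the 5 windows of Satb1. The ETS letters were found in windows of Il7r, Rag1 and Satb1, the RUNX letters in those of Il7r and Rag1. TGGGAA was found in windows of Rag1 and Satb1, and the windows of Dntt and Flt3 held none of these letters. Dntt has 3 annotated starts in GENCODE, and the last of them, 110 bases after the first, falls exactly on the letters CTCANTCT of an initiator, the core promoter element that was first described in this gene. The ETS letters AGGAAGT begin 57 bases before that start, beyond the window searched around the first start. The bases at this last start were read for Dntt alone. Both sites are shown with the matched letters in capitals, read from the GRCm38.p6 genome.

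Dntt, ETS letters, chr19:41029317-41029345, plus strand: attccttcagcAGGAAGTtgtcaccaggg

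Dntt, initiator at the last annotated start, chr19:41029374-41029403, plus strand: acatcagagccCTCATTCTggagacaccac

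The initiator letters occur on the strand of the gene in 2.79% of the 32851 windows. The site shown lies beyond the window of Dntt, so this share is not a background for it. The same letters also occur on the minus strand, 78 bases before the last start. A match of letters is a description of the sequence and does not show binding.

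The libraries hold 38643253 to 57895793 fragments on genes. Levels are given as FPKM, fragments per kilobase of gene length scaled to the sequencing depth, after each library was divided by its own total, because the third Znf143 -/- column had been deposited with the divisor of the second and stood 1.20 times too high. Zfp143, the mouse symbol of the deleted gene, was at 3.06, 4.03 and 3.63 FPKM in the controls and at 0.145, 0.303 and 0.273 FPKM in the Znf143 -/- libraries. Within each genotype 2 libraries were close to each other and 1 stood apart. Chi-square of fragments per gene was 4.96 between Znf143 f/f libraries 1 and 3 and 6.86 between Znf143 -/- libraries 2 and 3, but 77.5 to 119 in the pairs that include Znf143 f/f library 2 or Znf143 -/- library 1. Of the 19212 genes with a mean of at least 0.1 FPKM, 1003 (5.22%) differed between genotypes at an adjusted p under 0.05 in limma, 544 (2.83%) higher and 459 (2.39%) lower in Znf143 -/-. With the replicate number of the labels as a block, 175 differed. The 3 libraries of one genotype lay wholly above those of the other for 3068 genes with Znf143 -/- higher (16%) and for 2586 with Znf143 -/- lower (13.5%). Of the 8 listed members, 6 passed this level filter, and Dntt and Flt3 were the 2 called, a count from which nothing is read, since it was known when the genes were chosen.

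Dntt encodes terminal deoxynucleotidyl transferase, which adds bases without a template to the ends joined during V(D)J recombination. It was close to absent in the controls. Dntt gave 27, 0 and 28 fragments in the controls, or 0.328, 0 and 0.296 FPKM. In the Znf143 -/- libraries it gave 659, 807 and 972 fragments, or 6.52, 7.84 and 7.89 FPKM. All 3 Znf143 -/- libraries were thus far above all 3 controls, and the control with no fragment was library 2, the deepest control. The exact Poisson 95% interval for the 0 fragments of that library reaches 0.0321 FPKM, and that of the highest control was 0.216 to 0.478 FPKM. Such intervals cover counting error only, since copies made by PCR were not told apart.

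The mean of Dntt was 0.208 ± 0.181 FPKM in Znf143 f/f and 7.42 ± 0.776 FPKM in Znf143 -/- (SD, n = 3 each), a ratio of means of 35.7. On the log2(FPKM + 0.1) scale, the difference was 4.87 (SE 0.543, 95% interval 3.58 to 6.16), which was number 2 from the top among the 19212 genes. Over all genes the median difference was 0.03. The ratio of Dntt rests in part on control library 2, and without it the ratio of means was 23.8. Without both libraries that stood apart, the ratio was 25.2 and the difference on the log2 scale 4.27. In level, Dntt stood above 26.7% of all listed genes in Znf143 f/f and above 74.7% in Znf143 -/-.

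Flt3 encodes the receptor tyrosine kinase of FLT3 ligand, a receptor described as absent from long-term stem cells and carried by multipotent and lymphoid-primed progenitors. Unlike Dntt, it was measured well above the floor in every library. Flt3 was at 5.37, 4.53 and 5.10 FPKM in the controls (1281, 1511 and 1403 fragments). It was at 15.0, 15.8 and 15.9 FPKM in the Znf143 -/- libraries (4388, 4721 and 5685 fragments). The lowest Znf143 -/- library lay above the highest control, and the spread within either genotype was small. The means were 4.999 ± 0.431 and 15.6 ± 0.516 FPKM (SD, n = 3 each), a ratio of 3.11 and a difference of 1.62 on the log2 scale (SE 0.106, 95% interval 1.37 to 1.87). Among the 12444 genes with a mean of at least 1 FPKM, this difference was number 138 from the top.

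**Figure D1:**
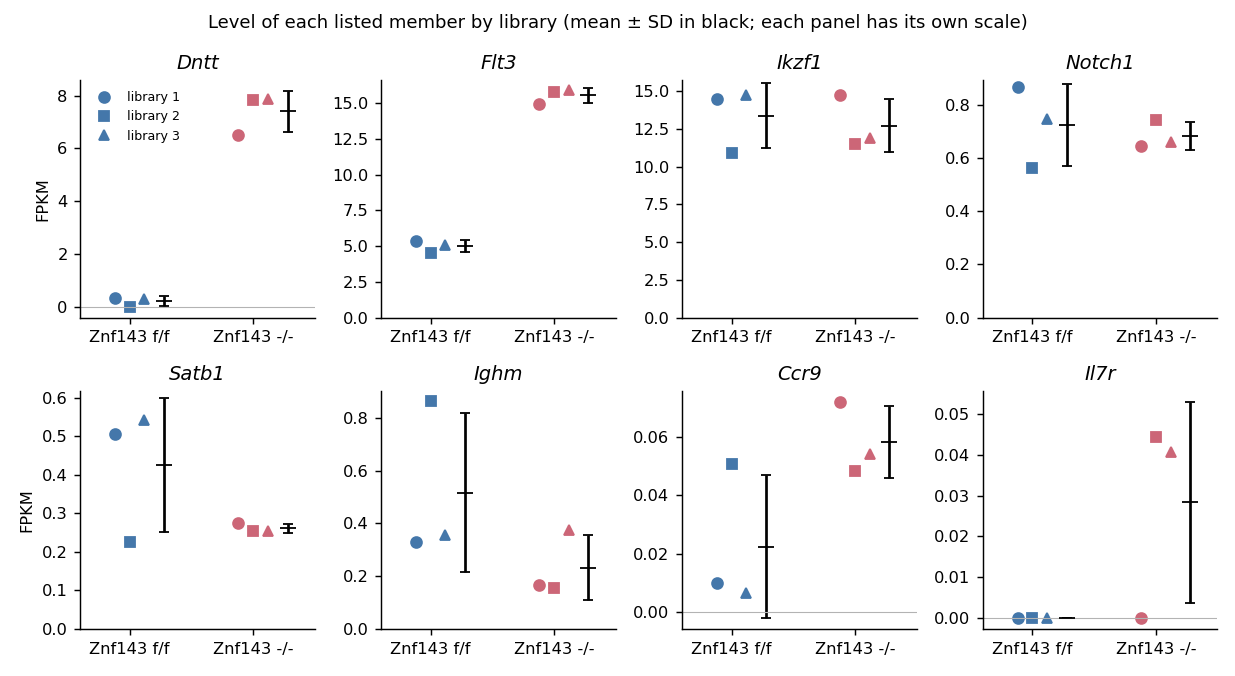
FPKM of the 8 listed genes in each Znf143 f/f library (blue) and each Znf143 -/- library (red), with the symbol giving the library number and the mean ± SD in black. Dntt and Flt3 separate by genotype, with Znf143 -/- at 6.52 to 7.89 and 15.0 to 15.9 FPKM, while Ikzf1, Notch1, Satb1, Ighm, Ccr9 and Il7r overlap.

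The other receptors of the group were at lower levels than Flt3 in every library. Il7r, on chromosome 15 (9505788 to 9530176), encodes the alpha chain of the interleukin-7 receptor, on which B and T lymphopoiesis depend in the mouse. It gave 0 fragments in all 3 controls and in Znf143 -/- library 1, and 10 and 11 fragments in Znf143 -/- libraries 2 and 3, or 0.0443 and 0.0407 FPKM. The genotypes overlap, and the gene did not pass the level filter. The exact Poisson 95% interval of a count of 0 reaches 0.0205, 0.0146 and 0.0178 FPKM in the 3 controls. The exact Poisson 95% interval was 0.0213 to 0.0815 FPKM for the 10 fragments and 0.0203 to 0.0729 FPKM for the 11. The lower end for the 11 fragments thus lies below the highest control limit. For the 0 fragments of Znf143 -/- library 1 the interval reaches 0.0167 FPKM.

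Ccr9, on chromosome 9 (123678439 to 123784330), encodes the receptor of the chemokine CCL25, which guides progenitors to the thymus and lymphocytes to the gut. It gave 4, 28 and 3 fragments in the controls and 35, 24 and 32 fragments in the Znf143 -/- libraries. These are 0.0101, 0.0505 and 0.00657 FPKM against 0.0718, 0.0484 and 0.0539 FPKM, so that control library 2 lay within the range of the Znf143 -/- libraries while the other two controls lay below it. Ccr9 was under the level filter. Of its 10260 exonic bases, 1932 are shared with the antisense gene AC165425.1 and smaller stretches with 2 more genes, and the preparation does not mark strand.

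Notch1, on chromosome 2 (26457903 to 26516663), encodes the receptor that directs lymphoid progenitors to the T lineage. It was at 0.867, 0.561 and 0.747 FPKM in the controls and 0.647, 0.745 and 0.660 FPKM in the Znf143 -/- libraries, each from 432 to 544 fragments. All Znf143 -/- values fell inside the range of the controls. The difference was -0.06 on the log2 scale (95% interval -0.56 to 0.44), and it was 0.02 with FPKM as deposited and 0.06 without control library 1. Exons of Notch1 share 1068 bases with the antisense gene 0610009E02Rik.

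Among the transcription factors, Ikzf1 encodes Ikaros, a zinc finger protein needed for lymphoid specification, on chromosome 11 (11685003 to 11772926). It was the most abundant of the members in the controls, at 14.5, 10.9 and 14.7 FPKM, and it was at 14.7, 11.5 and 11.9 FPKM in the Znf143 -/- libraries. The genotypes overlap, and in either of them the library that stood apart also differed from the others for Ikzf1, below them in Znf143 f/f and above them in Znf143 -/-. The difference was -0.07 (95% interval -0.45 to 0.31), turned to 0.02 with FPKM as deposited and to 0.01 without control library 3, and was -0.32 without both libraries that stood apart.

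Satb1, on chromosome 17 (51736187 to 51833290), encodes a chromatin organizer that is abundant in thymocytes and is linked to the lymphoid potential of stem cells. It was at 0.506, 0.225 and 0.542 FPKM in the controls and, within a narrow band, at 0.273, 0.253 and 0.255 FPKM in the Znf143 -/- libraries. Control libraries 1 and 3 lay above the Znf143 -/- libraries and control library 2 below them. The difference was -0.48 (95% interval -1.23 to 0.28), and -0.79 without control library 2. Satb1 was thus opposite in sign to Dntt, with the spread of its controls larger than the difference between genotypes.

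Ighm, on chromosome 12 (113418558 to 113422730), is the constant region of the immunoglobulin mu heavy chain, whose locus gives sterile transcripts in early progenitors. It gave 24, 88 and 30 fragments in the controls and 15, 14 and 41 in the Znf143 -/- libraries, or 0.329, 0.863 and 0.357 against 0.167, 0.153 and 0.375 FPKM. The groups overlap through Znf143 -/- library 3, and control library 2 was the highest of all 6. The difference was -0.85 (95% interval -1.84 to 0.14), and -0.48 without control library 2. Of the 6 members above the level filter, 4 thus had a difference below 0 (2 with FPKM as deposited), and the median of the 6 was -0.06 beside 0.03 over all genes.

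**Figure D2:**
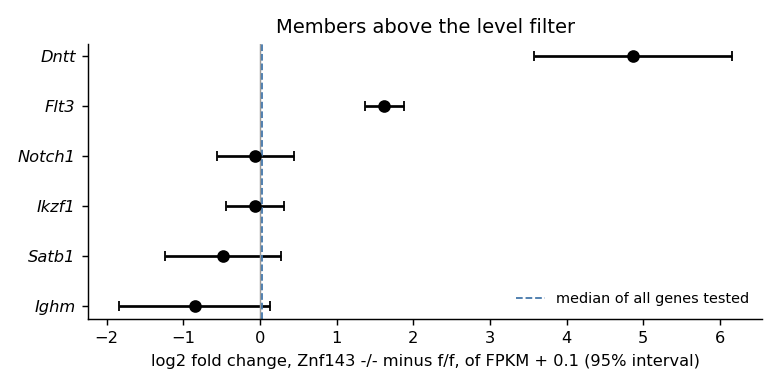
Fitted difference between genotypes on the log2(FPKM + 0.1) scale for the 6 members above the level filter, with 95% intervals (horizontal axis), the median of all genes as a dashed line and 0 as a grey line. Dntt lies at 4.87 and Flt3 at 1.62, and Notch1, Ikzf1, Satb1 and Ighm lie between -0.85 and -0.06.

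FPKM are per length, so the members can be ordered by level within a genotype. In Znf143 f/f the order of the means was Ikzf1 (13.4 FPKM), Flt3 (4.999), Notch1 (0.725), Ighm (0.517), Satb1 (0.424), Dntt (0.208), Ccr9 (0.0224) and Il7r (0). Ikzf1 and Flt3 were apart from each other and from the rest in every library. Ighm overlapped with both Notch1 and Satb1, as did Satb1 with Dntt and Dntt with Ccr9, while Notch1 lay above Satb1 in every control. In Znf143 -/- the order was Flt3 (15.6 FPKM), Ikzf1 (12.7), Dntt (7.42), Notch1 (0.684), Satb1 (0.261), Ighm (0.232), Ccr9 (0.0580) and Il7r (0.0284). Here Dntt stood apart from Ikzf1 above it and Notch1 below it, and Satb1 and Ighm overlapped. The level of Dntt was 6.12%, 0% and 5.79% of that of Flt3 in the 3 controls and 43.6%, 49.6% and 49.6% in the 3 Znf143 -/- libraries. Since both were measured in the same library, this share does not depend on the divisor of the library. Likewise, the level of Flt3 was 0.371, 0.416 and 0.346 times that of Ikzf1 in Znf143 f/f and 1.02, 1.37 and 1.34 times in Znf143 -/-. In bulk RNA, more cells of a type and more RNA per cell cannot be told apart.

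The 6 lists of other genes from the same pathways were then read in the fit over all genes and hold 117 distinct genes, of which 96 were tested, and 6 of these (6.25%) were called, all higher in Znf143 -/-, beside 5.22% of all genes. Nhej1, Cxcr3, Ccl25, Itgb7, Cd48 and Emb were the 6 called. The count of 6 depends on single libraries, with 2, 12 and 1 calls without control library 1, 2 or 3 and 10, 2 and 1 without Znf143 -/- library 1, 2 or 3. With the replicate number as a block 0 were called, and 19 had an unadjusted p under 0.05. Of the 17 alternative fits, Cd48 was called in 16, Itgb7 in 13, Ccl25 in 11, Cxcr3 in 10, and Nhej1 and Emb in 8 each.

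The lymphoid transcription factors included the relatives of Ikaros and the B and T lineage regulators. None of the 20 tested was called by limma (5 had an unadjusted p under 0.05, and voom called 1), and the median difference was -0.11. Spi1, which encodes PU.1, was at 56.8 FPKM in Znf143 f/f and 47.8 FPKM in Znf143 -/-, and Sox4 at 49.96 and 49.6 FPKM. Irf8, a factor of monocyte and dendritic cell development, was at 1.05 and 1.92 FPKM (adjusted p = 0.0603 in limma). Of the Ikaros relatives, Ikzf2, Ikzf4 and Ikzf5 had differences of -0.11, -0.77 and -0.32, and Ikzf3 was under the level filter. Without both libraries that stood apart, 9 of the 20 were called, beside 8113 of 19110 over all genes in that fit. Nothing is read from this count.

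The V(D)J end-joining and polymerase list is of interest beside Dntt because TdT works at ends that these proteins hold and ligate. Of 16 genes 1 was called. Nhej1, which encodes the XRCC4-like factor XLF, was at 9.84, 10.6 and 10.8 FPKM in Znf143 f/f and rose to 15.2, 14.1 and 15.3 FPKM in Znf143 -/-, a difference of 0.51 (SE 0.0948, adjusted p = 0.0321 in limma). With all libraries kept, its adjusted p was 0.0817 with FPKM as deposited, 0.0663 with voom, 0.0655 without the variance trend and 0.168 with the replicate block. Xrcc5, which encodes the Ku subunit Ku80, was at 15.7 and 22.2 FPKM (adjusted p = 0.0656). The 3 relatives of TdT in the polymerase X family did not share its difference, with Polm at -0.27, Poll at -0.20 and Polb at -0.08 on the log2 scale (adjusted p = 0.720, 0.343 and 0.644). The most abundant genes of the list, Hmgb2 and H2afx, had differences of -0.02 and 0.09. The median of the list was 0.03, the same as over all genes.

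None of the 25 tested genes of the Notch pathway was called by limma (5 had an unadjusted p under 0.05, and voom called 1), and the median was -0.06. Notch2, Notch3 and Notch4 had differences of -0.34, -0.29 and 0.63, with adjusted p-values of 0.185, 0.492 and 0.168 in limma. Of the ligands, Dll4, Jag1 and Jag2 were at 0.41, 0.67 and -0.22, and Dll1 was under the level filter. Hes5, a target of Notch signalling, was at 0.965 FPKM in Znf143 f/f and 0.604 FPKM in Znf143 -/- (adjusted p = 0.104), and Hes1 at 8.43 and 7.97 FPKM. Psenen, a gamma-secretase subunit, and Mfng, a glycosyltransferase of the receptor, were the most abundant, with differences of -0.02 and 0.02.

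Of the lymphoid cytokine receptors and their signalling genes, 17 were tested and none was called by limma (6 had an unadjusted p under 0.05, and voom called 1). Il2rg, which encodes the common gamma chain that pairs with the interleukin-7 receptor, was at 58.3, 40.0 and 55.2 FPKM in Znf143 f/f and at 68.2, 89.3 and 80.3 FPKM in Znf143 -/-, without overlap, and its adjusted p was 0.0867. Crlf2, the partner of the alpha chain in the receptor of TSLP, had a difference of -0.24 (adjusted p = 0.220). Flt3l, which encodes the ligand of FLT3, was at 2.66, 2.43 and 2.48 FPKM in Znf143 f/f and at 1.76, 1.96 and 1.89 FPKM in Znf143 -/-, a difference of -0.41 (adjusted p = 0.124). The ligand Il7 was at -0.03.

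Of the chemokine list 3 of 12 tested genes were called, with a median difference of 0.61. Cxcr3, a receptor of interferon-induced chemokines, rose from 0.402 to 1.60 FPKM, a difference of 1.83 (SE 0.368, adjusted p = 0.0394 in limma). Ccl25, which encodes the ligand of CCR9, rose from 2.12 to 3.61 FPKM, a difference of 0.74 (SE 0.142, adjusted p = 0.0340). Itgb7, the beta subunit of the integrin by which lymphocytes enter the gut, rose from 5.06 to 9.75 FPKM, a difference of 0.93 (SE 0.108, adjusted p = 0.00742). Selplg and Cxcr4, the most abundant genes of this list, had differences of -0.04 and -0.09.

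Of the 8 tested surface genes of multipotent progenitors, 2 were called. Cd48 rose from 9.74 to 19.6 FPKM, a difference of 1.00 (SE 0.0949, adjusted p = 0.00346 in limma). These are RNA levels, whereas the cells of both genotypes had been sorted as negative for CD48 protein at the surface. Emb, an adhesion molecule of the immunoglobulin family, rose from 13.1 to 22.3 FPKM, a difference of 0.76 (SE 0.161, adjusted p = 0.0464). Cd27 and Cd34, the most abundant of the list, had differences of 0.05 and 0.04.

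**Figure D3:**
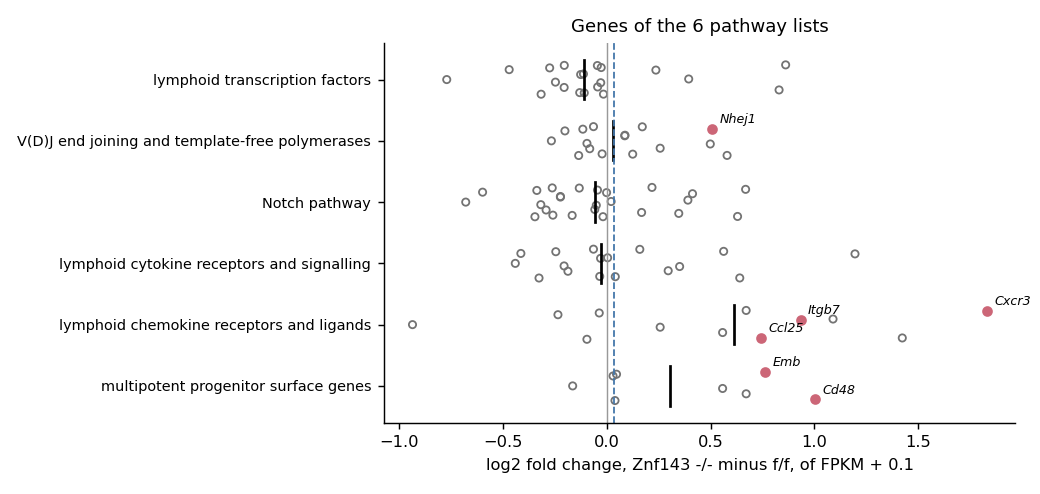
Fitted differences between genotypes on the log2(FPKM + 0.1) scale for the tested genes of the 6 pathway lists, with called genes filled and named, list medians as black bars and the median of all genes as a dashed line. All 6 called genes lie above 0, and the lists of transcription factors, the Notch pathway and cytokine receptors hold none.

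Position was not used to choose the genes, so the surroundings of Dntt were read in the same fit. Of the 15 listed genes within 500 kb of Dntt, 13 were tested and 2 were called, both higher in Znf143 -/-, beside 5.22% of all genes in either direction and 2.83% higher. Entpd1, which encodes the ectonucleotidase CD39 and ends 288 kb before Dntt, was at 2.83, 2.50 and 2.80 FPKM in Znf143 f/f and rose to 7.06, 5.39 and 5.50 FPKM in Znf143 -/-, a difference of 1.11 (SE 0.146, adjusted p = 0.0107 in limma). Cc2d2b, 202 kb before Dntt, rose from 0.147 to 0.535 FPKM, a difference of 1.35 (SE 0.251, adjusted p = 0.0321). The gene next to Dntt on the side of its start is Blnk, 34.7 kb away, which encodes an adaptor of the B cell receptor. It was at 0.108, 0.0278 and 0.0825 FPKM in Znf143 f/f and at 0.2003, 0.190 and 0.222 FPKM in Znf143 -/-, from 9 to 77 fragments, without overlap but with an adjusted p of 0.167. On the other side Tll2, 23.2 kb away, gave 0 fragments in 4 libraries and 8 and 17 in Znf143 -/- libraries 2 and 3. The 10 other tested genes had differences between -0.77 and 0.38, none of them called. Entpd1 was called in 13 of 17 alternative fits and Cc2d2b in 10 of 16. With the replicate block neither was called, with adjusted p-values of 0.0616 and 0.1195 in limma. The count of 2 fell to 0 without control library 3 or Znf143 -/- library 3, to 1 without control library 1 or Znf143 -/- library 2, and was 4 without Znf143 -/- library 1.

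**Figure D4:**
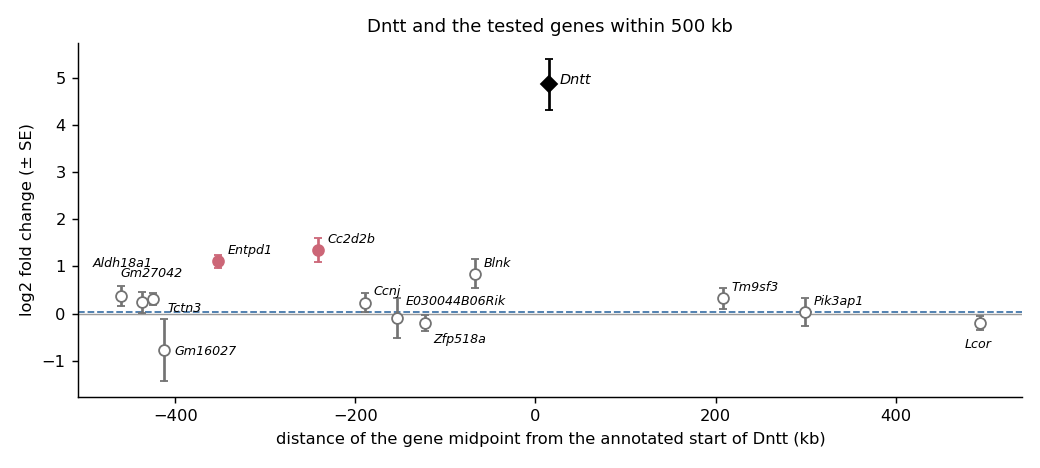
Fitted difference between genotypes on the log2(FPKM + 0.1) scale (± SE) against the distance of each gene's midpoint from the annotated start of Dntt in kb, for Dntt (diamond) and the 13 tested genes within 500 kb, with called genes filled. Entpd1 and Cc2d2b lie at 1.11 and 1.35, Dntt at 4.87, and the 3 tested genes beyond Dntt between -0.20 and 0.32.

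The genes whose pattern over the 6 libraries was most like that of Dntt, by Pearson correlation of log2(FPKM + 0.1) among genes with a mean of at least 1 FPKM, were Col18a1, Tgfbi, Scarb2, Arpc1a and Pla2g7, with r between 0.998 and 1.000. The 6 points fall into 2 genotypes and share their libraries, so that r mostly follows the step between genotypes together with the low value of control library 2. Tgfbi was at 13.9, 8.22 and 12.9 FPKM in Znf143 f/f and at 35.0, 36.3 and 36.2 FPKM in Znf143 -/-. Pla2g7 was at 0.428, 0.0955 and 0.340 against 2.86, 2.86 and 3.70 FPKM. Like Dntt, both were lowest in control library 2. Flt3 itself had an r of 0.982 with Dntt. Most like Flt3 were Dlk1, B930036N10Rik, Itpripl1, Tdpx-ps1 and Naaa, with r between 0.998 and 0.999. Dlk1, which encodes a Delta-like membrane protein, was at 0.627, 0.451 and 0.580 FPKM in Znf143 f/f and at 2.72, 3.36 and 3.26 FPKM in Znf143 -/-. The 2 sets of 5 share no gene.

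Markers of the sorted cells and of other cell types were read beside these differences. The stem cell markers were present in every library, with Procr at 43.3 to 48.5 and Kit at 12.6 to 22.0 FPKM. Of 14 tested, Ly6a, which encodes SCA-1, was higher in Znf143 -/- (257 and 571 FPKM, adjusted p = 0.00553 in limma) and Mecom lower (8.88 and 6.17 FPKM, adjusted p = 0.0329), with a median of -0.24. The summed level of this list was 505 to 617 FPKM in Znf143 f/f and 782 to 887 FPKM in Znf143 -/-. Without Ly6a, the sum of the other 13 was 287 to 330.5 and 220.1 to 291 FPKM.

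Lymphocyte markers ranged from absent to well expressed. Of 16 B cell, 16 T cell, 11 NK cell and 11 plasmacytoid dendritic cell markers, 11, 11, 9 and 7 were listed. The others, among them Cd22, Ms4a1, Igll1, Cd8a, Zap70, Ncr1 and Siglech, were not analysed here. Cd79a, which encodes a signalling chain of the B cell receptor, was at most at 0.0762 FPKM in any library, whereas its partner Cd79b was at 39.3 to 44.1 FPKM and Cd72 at 8.28 to 9.58 FPKM. Of the 11 listed B cell markers, none of the 9 tested was called by limma (3 had an unadjusted p under 0.05, and voom called 1), and the summed level was 131 to 169 FPKM in Znf143 f/f and 183 to 342 FPKM in Znf143 -/-. Most of that sum is Cd74, the invariant chain, at 78.1, 111 and 78.5 against 128, 290 and 257 FPKM (adjusted p = 0.0732). Vpreb1, a surrogate light chain gene of B cell progenitors, was at 2.97 FPKM in Znf143 f/f and 1.93 FPKM in Znf143 -/- (adjusted p = 0.114). Of the 11 listed T cell markers, 1 of 8 tested was called, Thy1, which rose from 0.800 to 2.60 FPKM (adjusted p = 0.0330). The summed level of the T cell list was 31.0 to 37.4 and 34.2 to 41.0 FPKM, of which Lat, an adaptor of T cell receptor signalling that platelets also carry, was at 23.3 to 28.2 FPKM and the kinase gene Lck at 4.94 to 8.98 FPKM. Of the CD3 chains, Cd3d was at 0.149 to 0.693 FPKM, and Cd3e and Cd3g stayed under 0.06 FPKM in every library. Cd3g gave 0 fragments in all controls and 7, 7 and 10 in the Znf143 -/- libraries. Cd2 gave 0 fragments in all controls and 7, 8 and 4 in the Znf143 -/- libraries. Cd3e overlapped, with 2, 0 and 3 fragments against 0, 10 and 7. Cd3e, Cd3g and Cd2 were under the level filter. Of the NK cell markers, 2 of 4 tested were called, Nkg7, which rose from 120 to 221 FPKM (adjusted p = 0.00786), and Ccl5, which rose from 4.32 to 12.4 FPKM (adjusted p = 0.00272). The sum was 118 to 136 and 224 to 257 FPKM, while Klrd1, Gzmb, Prf1 and Klrk1 gave 0 fragments in all Znf143 f/f libraries. Gzmb was among the 4 tested and passed the filter only through its Znf143 -/- libraries, so nothing is read from the count. Of the plasmacytoid dendritic cell markers, 1 of 7 was called, Irf7, an interferon-induced factor, which rose from 6.08 to 24.2 FPKM (adjusted p = 0.00156), and the sum was 210 to 239 and 202 to 227 FPKM.

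Of the myeloid markers, 4 of 11 tested were called, all higher, beside 2.83% of all genes called higher, and the median was 0.96. Elane and Ctsg, which encode proteases of neutrophil granules, rose from 0.441 to 7.90 FPKM (adjusted p = 0.0315 in limma) and from 0.128 to 3.04 FPKM (adjusted p = 0.0123). For both, Znf143 -/- library 1 was the lowest of its genotype, as it was for Dntt. Csf1r rose from 0.00637 to 0.212 FPKM (adjusted p = 0.0342) and S100a8 from 24.3 to 63.3 FPKM (adjusted p = 0.0255). The control mean of Csf1r is far under the level filter of 0.1 FPKM. Csf1r thus passed the filter only through its Znf143 -/- libraries. Nothing is read from its call, or from the count of 4 and the median of the list, which include it. Since Lyz2, the most abundant of the list, was at 534 and 418 FPKM (adjusted p = 0.0761), the summed level was 700 to 824 FPKM in Znf143 f/f and 697 to 797 FPKM in Znf143 -/-. Of the 8 megakaryocyte markers Gp5 rose from 17.8 to 27.9 FPKM (adjusted p = 0.0331), all 8 had a difference above 0, and the sum was 512 to 652 and 734 to 992 FPKM. Of the 10 erythroid markers Hbb-bt fell from 2.12 to 0.776 FPKM (adjusted p = 0.0206), and the sum was 106 to 246 and 94.9 to 105 FPKM. The part of these markers in the differences of Dntt and Flt3 was not tested.

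**Figure D5:**
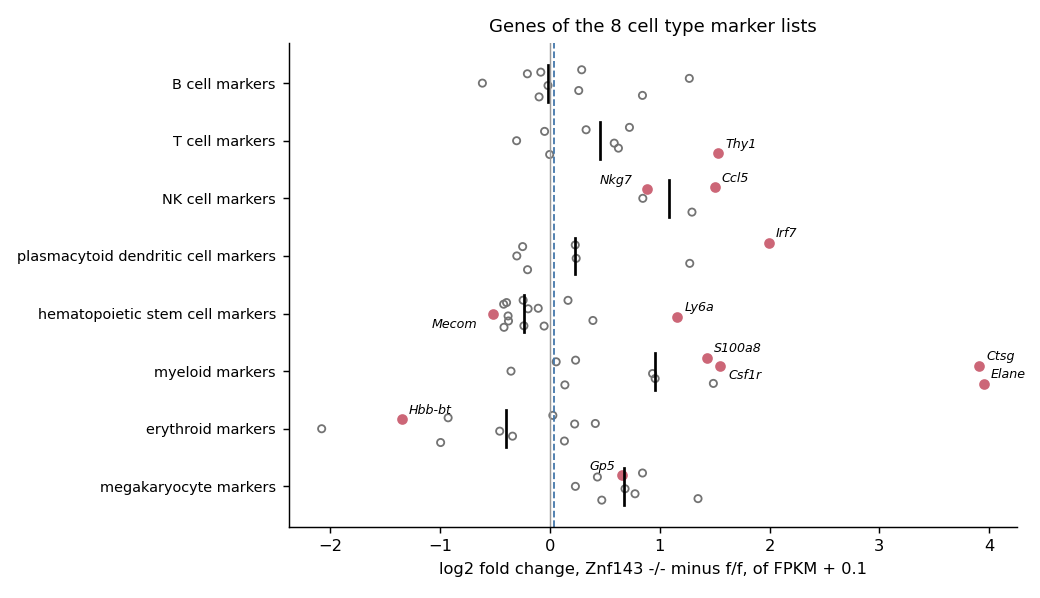
Fitted differences between genotypes on the log2(FPKM + 0.1) scale for the tested genes of 8 cell type marker lists, with called genes filled and named, list medians as black bars and the median of all genes as a dashed line. Elane and Ctsg lie highest at 3.95 and 3.91, and the B cell list holds no called gene.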

How the data were processed

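The RNA-seq part of the series was used, 3 libraries of HSLAM cells per genotype, grouped by sample titles. ChIP-seq and HiC samples were not analysed here. The 10 genes, the lists and the tests were chosen with earlier results of these data known. The authors prepared SMART-Seq v4 and Nextera XT libraries, which do not mark strand, and ran TrimGalore, STAR on GRCm38, FeatureCounts and DESeq2. The authors deposited FPKM of each library with gene lengths. The further columns that the authors deposited (mean normalized signal, log2 fold change and its standard error, test score, p-value and adjusted p-value) were not used. FPKM times length gave whole fragments within 0.05 for 138677 of 138696 values, and each library was rescaled to its own total.

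Genes with a mean of at least 0.1 FPKM were compared on log2(FPKM + 0.1), which understates the change of low genes, by limma (version 3.58.1, R 4.3.3), fitting genotype alone and moderating the variances along a trend, with Benjamini-Hochberg adjustment over 19212 genes and calls at an adjusted p under 0.05. The p-values measure the spread between 3 mice per genotype. The fit was tested on simulated data with 200 changed genes. All simulated libraries had the same spread, and the changed genes had a mean of at least 1 FPKM. The simulation therefore does not cover libraries that stand apart or genes of lower level. Coordinates are from GENCODE release M21, sequences from RefSeq, both on GRCm38. Python 3.11.15, pandas 2.3.3, numpy 2.4.6 and matplotlib 3.10.9 were used.

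Named genes are the members, called list genes, the 2 most abundant genes of each pathway list, relatives and ligands of members, genes within 500 kb of Dntt, the 5 genes most like Dntt and Flt3, and called or absent markers. Some list genes are not reported here. Irf8, Xrcc5, Hes1, Hes5, Procr, Kit, Cd74, Vpreb1, Lyz2 and Tll2 were added after their values were seen. As alternatives, the pseudocount was set to 0.01 or 1 and the filter was dropped or raised to 1 FPKM. Others were FPKM as deposited, median-of-ratios size factors, voom on recovered fragments, no variance trend, the replicate number as a block with and without size factors, and each library left out. Leaving out both libraries that stood apart was added after the data were seen.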

Additional observations from a re-analysis of the deposited data

How the results depend on the processing

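The difference of Dntt kept its sign in all 17 alternatives and depended on the treatment of low values, at 6.19 with a pseudocount of 0.01, 2.81 with a pseudocount of 1 and 6.74 with voom, and it ranged from 4.19 to 5.23 with 1 library left out. Flt3 ranged from 1.47 to 1.71. The number of members called was 2 with any 1 library left out, 1 with a pseudocount of 0.01 (Flt3) and 4 without both libraries that stood apart (Satb1 and Ikzf1 added, both lower), counts that only describe genes chosen for a known difference and show nothing of its stability. The number of genes called, 1003, was 291, 1905 and 214 without Znf143 f/f library 1, 2 or 3 and 1919, 313 and 189 without Znf143 -/- library 1, 2 or 3, a range of 189 to 1919, and 8113 without both libraries that stood apart, where each genotype is left with 2 libraries that are close to each other. Pathway list genes called were 11 with voom, 51 of 95 without both (beside 8113 of 19110 over all genes), and 1 to 12 with 1 library left out. Genes called within 500 kb of Dntt were 1 among genes with a mean of at least 1 FPKM, 6 of 13 without both, and 0 to 4 with 1 library left out. Over the 137 named or listed genes other than Dntt, 2078 refitted values stayed on their side of the threshold or within 1 SD, 109 lost a call, 73 gained one, 40 moved by more, and no called gene changed sign. The cause was not tested where a value moved.

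The labels number the replicates alike in both genotypes, but the deviations of same-numbered libraries correlated at -0.10 to 0.04, beside -0.04 to 0.11 for libraries of unlike number, so that neither a source nor the values tie the numbers to the 3 littermate pairs that the study describes. With the replicate number as a block, limma called 175 genes, 0 pathway list genes (19 at an unadjusted p under 0.05) and 0 genes near Dntt (2 at an unadjusted p under 0.05). With median-of-ratios size factors and the replicate block, it called 186 genes (81 higher and 105 lower), 1 pathway list gene and 0 near Dntt (2 at an unadjusted p under 0.05). The median over all genes was 0.03, and 0.11 with FPKM as deposited. Depth limits Il7r and Ccr9, with at most 35 fragments in any library, and Dntt in the controls.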

Other observations

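Il7r was not the only gene of the lists with fragments in Znf143 -/- libraries 2 and 3 and 0 in the other 4 libraries, a pattern chosen after the values were seen. Ikzf3, which encodes the Ikaros relative Aiolos, gave 13 and 18 fragments there, Il2ra, the alpha chain of the interleukin-2 receptor, 14 and 6, and the NK cell genes Klrd1, Klrk1 and Gzmb 9 and 16, 18 and 34, and 33 and 13. Over all listed genes, 203 had fragments in this pair of libraries alone, beside 131 in Znf143 f/f libraries 1 and 3 alone and 0 to 84 in the other 13 pairs of libraries.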
